A study of Drosophila melanogaster with 6 samples.

Results

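The core apoptosis genes of Drosophila melanogaster were examined in larval eye-antennal discs that expressed either an activated Ras or a secreted EGF receptor ligand. The set comprised 10 genes, namely the death activators rpr, hid, grim and skl, the inhibitors Diap1 and Diap2, and the caspase machinery Dronc, Dark, Drice and Dcp-1. A member was measured here when the array annotation gave a probe set that gene and no other. By that rule 6 of the 10 genes had a probe set, 1 each, among 13966 probe sets in all. These were grim, skl, Diap2, Dronc, Dark and Dcp-1. The genes rpr, hid, Diap1 and Drice had no such probe set and were not analysed here.

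The arrays held RNA from 2 genotypes with 3 biological replicates each. RasV12 discs were GMR Gal4/UAS RasV12, with a constitutively active form of the small GTPase Ras that acts within the cell making it. sSpi discs were GMR Gal4/+; UAS sSpi/+, with secreted Spitz, an EGF receptor ligand whose signal reaches Ras through the receptor. The larvae were wandering 3rd instar animals raised at 25 °C, and each sample pooled 100 discs. Both genotypes carry GMR-Gal4, which drives expression posterior to the furrow that sweeps across the eye disc as photoreceptors begin to differentiate, and which on its own can raise cell death when strongly expressed. Whole eye-antennal discs were taken, so cells anterior to the furrow and antennal cells, which do not express the transgene, contribute RNA. No discs without a transgene were analysed here, and each value sets RasV12 against sSpi. Titles, sources and genotypes of the sSpi arrays name sSpi, while their description field names RasV12; the arrays were grouped by title.

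In flies, cells are kept from dying by inhibitor of apoptosis proteins, above all Diap1, which bind caspases and mark them for degradation. The activators rpr, hid, grim and skl encode small proteins whose amino-terminal motif binds these inhibitors and frees the caspases. The initiator caspase Dronc is then activated on a scaffold made by Dark, the fly Apaf-1, and cleaves the effector caspases Drice and Dcp-1. EGF receptor and Ras signalling is a known survival signal in the eye disc: the MAP kinase it activates lowers hid transcription and phosphorylates the Hid protein. The comparison asks whether transcripts of this pathway differ when that signal is driven by Ras inside the cell or by ligand outside it.

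Of the 6 measured genes, 5 were tested and 1 passed. The activator grim was lower in RasV12, at a mean signal of 17.9 ± 3.19 in RasV12 discs against 43.4 ± 10.2 in sSpi discs (SD, n = 3 each). Its RasV12 mean lay below 23.4, the lowest mean over all arrays that was tested, so grim entered the test through its sSpi signals. Without that limit on mean signal it did not pass (limma adjusted p = 0.10). The scaffold gene Dark averaged 69.9 ± 7.88 in RasV12 and 48.5 ± 12.4 in sSpi and did not pass the test. The initiator caspase Dronc, the effector caspase Dcp-1 and the inhibitor Diap2 did not pass, with differences within a log2 value of 0.24. The activator skl was too dim to be tested. Signals are the authors' linear array intensities, which compare genotypes for 1 probe set but not levels between genes.

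Differences were fitted on log2(signal + 16) with limma over the 8380 probe sets whose mean signal was above 23.4, and a call needed an adjusted p under 0.05 over all of them. Of the 5 members tested, 1 was called, lower in RasV12. Among all probe sets tested, 2.61% were called in either direction and 1.31% were called lower in RasV12. Groups of arrays did not overlap for 1 of 5 members, against 21.3% of all probe sets, so that count is close to the background. An unadjusted limma p under 0.05 was reached by 2 of 5 members, grim and Dark, against 15.2% of all probe sets. The median log2 difference of the 5 was 0.15, with 4 above 0, against a median of -0.0072 over all probe sets tested.

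The arrays had similar median signals, from 39.5 to 41.4. RasV12 replicate 1 stood apart in 18S ribosomal RNA, at 157 for its middle probe set against 24.7 to 30.4 on the other 5 arrays. sSpi replicate 2 stood apart in the summed signal of 6 salivary gland glue genes, at 805 against 98.0 to 191 on the other 5. Other arrays differed in other tissues. The summed signal of 3 fat body genes was 238 on sSpi replicate 1, against 70.5 to 85.1 on the other 5. That of 3 muscle genes ran from 229 on sSpi replicate 1 to 858 on sSpi replicate 3. Of the 12 eye disc markers all had a probe set and 11 were tested, with elav at 97.7 ± 5.08 in RasV12 and 106 ± 3.65 in sSpi (SD, n = 3). Of these 11, ato and lz rose in RasV12 and ey and ro fell. Among 5 antennal disc genes al fell, while 3 lay above 0. Of those, dan, at 0.46 ± 0.13 on the log2 scale, and ss, at 0.40 ± 0.15, did not pass (limma adjusted p = 0.11 and 0.23). Over all probe sets tested, 2.61% were called. The eye disc marker too dim to be tested was sens, at 34.5 ± 0.30 in RasV12 and 8.09 ± 4.01 in sSpi (SD, n = 3). Its groups did not overlap, and it passed without the limit on mean signal (limma adjusted p = 0.024). The calls of ey and ro were not stable, with ey no longer passing in 13 of 17 other settings (highest limma adjusted p 0.21) and ro in 7 of 17 (highest 0.12). No gene was called among 6 plasmatocyte, 2 fat body, 3 salivary gland, 3 muscle and 1 tracheal markers tested, none of which lay at 0, and the tracheal gene, Gasp, had an unadjusted limma p under 0.05. The plasmatocyte marker NimC1 was too dim to be tested, at 4.64 ± 1.76 in RasV12 and 21.5 ± 3.99 in sSpi (SD, n = 3) with no overlap, and it passed without the filter on low signals (limma adjusted p = 0.026). The smallest p in these lists belonged to Pxn and Hml, Fbp1 and Lsp2, Sgs7 and Sgs3, Mlc2 and Tm2, and Gasp. In bulk discs, fewer cells of a type and less RNA per cell cannot be told apart.

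**Figure D1:**
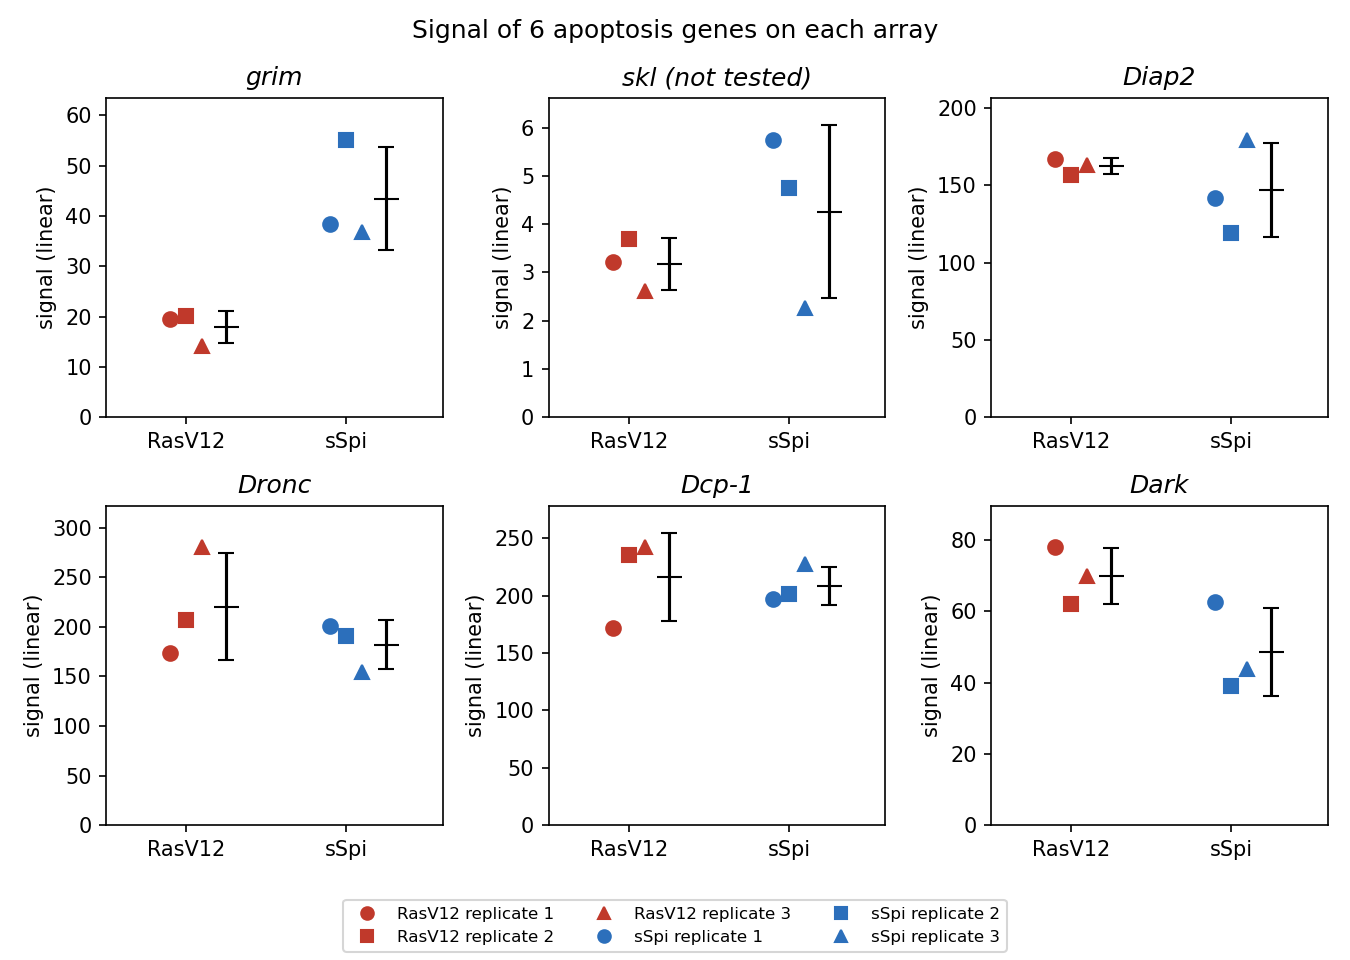
Signal of each measured apoptosis gene on the 6 arrays, on linear axes that start at 0, with RasV12 in red and sSpi in blue, and black bars for the mean and SD of 3 arrays. The grim values lie between 14.2 and 20.0 in RasV12, all below the sSpi values of 36.7 to 55.2, while the groups overlap for the other 5 genes.

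The activator grim had signals of 19.4, 20.0 and 14.2 in RasV12 replicates 1 to 3, against 38.3, 55.2 and 36.7 in sSpi replicates 1 to 3. Each RasV12 array was lower than each sSpi array, and the highest value was on sSpi replicate 2. The log2 difference, RasV12 minus sSpi, was -0.80 ± 0.17 (SE), with a 95% interval of -1.18 to -0.42 and a limma adjusted p of 0.042 (n = 3 each). RasV12 stood at 0.41 of the sSpi level by mean signals and at 0.57 on the log2(signal + 16) scale, which shrinks differences of dim genes. An exact two-sided permutation test gave p = 0.1, the smallest that 3 arrays against 3 allow.

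The direction of grim was the same in all 16 other settings in which it could be fitted, and the call ended in 9 of them. As its groups did not overlap, a left-out array or another pseudocount could not reverse it. The difference itself was unchanged without the filter, without the trend, with the replicate block and with 1 probe set per gene. The shared direction is therefore no separate support. With any 1 array left out other than RasV12 replicate 1, the limma adjusted p lay between 0.082 and 0.17, so the call needed each of the other 5 arrays. Without sSpi replicate 2, the array high in glue genes, the log2 difference was -0.66 and the adjusted p 0.17. With the replicate number as a block in a paired fit, the adjusted p was 0.055. The size depended on the pseudocount, with log2 differences of -1.22 at 1 and -0.39 at 64, both of which passed. Of 6 genes on the glial marker list, 5 were tested and 1 was called, against 2.61% of all probe sets. That gene, Gli, which encodes gliotactin, fell, at 738 ± 43.0 in RasV12 and 1189 ± 39.8 in sSpi (SD). Its log2 difference was -0.68 ± 0.09 (adjusted p = 0.0051 in limma, n = 3). Which cells of the disc hold the Gli transcript was not tested. Summed signal of the 6 was 1102 to 1249 in RasV12 against 1591 to 1696 in sSpi, and without Gli, which made up most of it, the sums overlapped, at 410 to 473 in RasV12 against 427 to 529 in sSpi. The others did not all differ in one direction, as moody was at 57.4 ± 18.2 in RasV12 and 93.2 ± 10.9 in sSpi, and nrv2 at 99.3 ± 9.68 in RasV12 and 62.9 ± 22.0 in sSpi, neither of which passed (limma adjusted p = 0.13 and 0.18). The untested gcm was at 10.4 ± 0.88 in RasV12 and 3.72 ± 2.10 in sSpi, and loco differed by 0.01 ± 0.11 on the log2 scale. The glial factor repo was at 99.4 ± 13.5 in RasV12 and 127 ± 22.8 in sSpi and did not pass. The part of glial RNA in the grim difference was not tested.

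In the RefSeq annotation 2 non-coding genes overlap grim, and which of these transcripts the probe set detects was not tested. Of the 8380 probe sets tested, the 5 of other named genes whose profile over the 6 arrays lay nearest to that of grim belonged to CG13044, svp, Rdh1, betaTub60D and CG4991. Likeness was the root mean square distance between log2 profiles, each less its own mean, and it lay between 0.11 and 0.14. The nearest, CG13044, had signals of 60.9, 66.6 and 65.7 in RasV12, against 119, 154 and 100 in sSpi. The gene svp, which encodes a nuclear receptor of some outer photoreceptors, had 109, 112 and 112 in RasV12, against 176, 226 and 195 in sSpi. Both were highest on sSpi replicate 2, and their groups did not overlap. As they were picked for likeness to the grim profile, these shared traits are no separate result.

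The activator skl had signals of 3.22, 3.69 and 2.62 in RasV12, against 5.75, 4.76 and 2.27 in sSpi. The groups overlapped, and the mean over all 6 arrays, 3.72, lay below the signal needed for the test. In a fit without the signal filter its limma adjusted p was 0.78 (n = 3).

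In the RefSeq annotation of assembly Release 6, hid, grim, rpr and skl lie in this order on the left arm of chromosome 3, with 4 other protein-coding genes between hid and grim. These 4, CG7320, CheA75a, CG5103 and CG13700, each had 1 probe set with a mean signal under 23.4, and none was tested. Their log2 differences lay between -0.04 and 0.16, against -0.80 for grim and -0.08 for skl. Low signals shrink differences on this scale, so these values bound little.

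**Figure D2:**
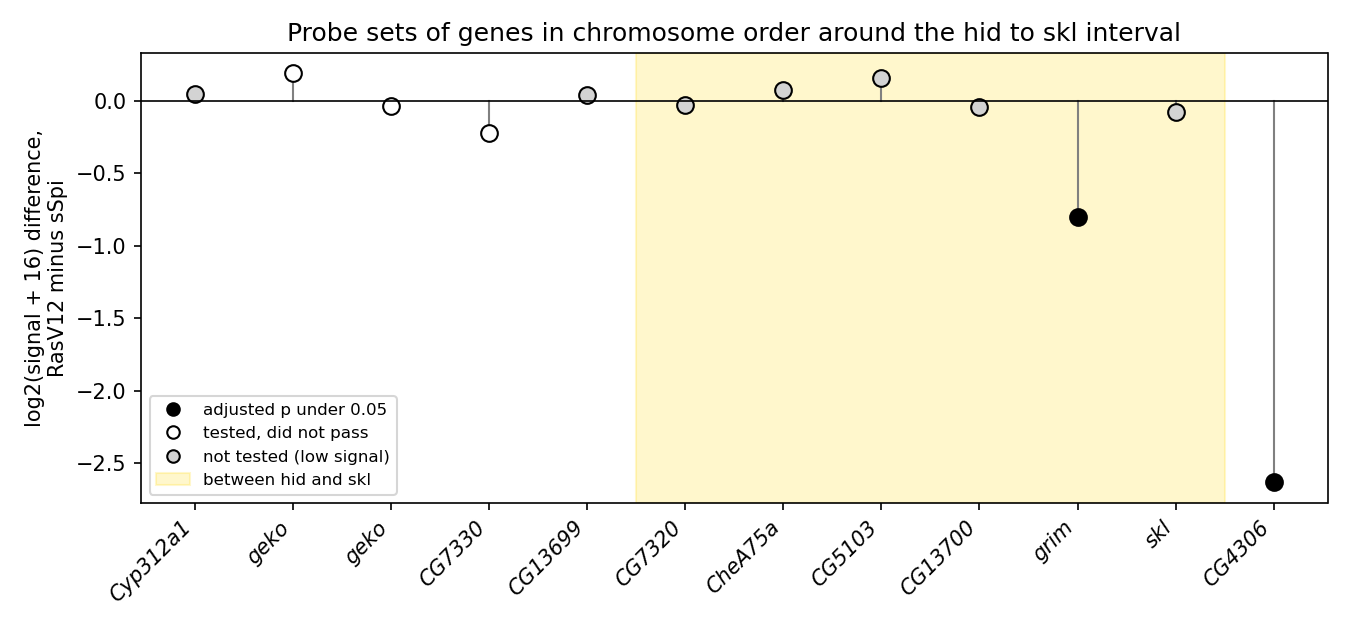
Log2(signal + 16) difference, RasV12 minus sSpi, for probe sets of genes in chromosome order around the interval from hid to skl, which is shaded; spacing is not to scale, geko has 2 probe sets and genes without a probe set are not shown. Inside the interval grim, at -0.80, was the 1 gene bright enough to be tested, and CG4306, beyond skl, was at -2.63.

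The inhibitor gene Diap2, which encodes a relative of Diap1 that binds effector caspases and acts in immune signalling, had signals of 167, 157 and 163 in RasV12, against 142, 120 and 180 in sSpi. The sSpi arrays held both the lowest and the highest value. The log2 difference was 0.15 ± 0.14 (SE), with a 95% interval that corresponds to 0.89-fold to 1.37-fold of the sSpi level (limma adjusted p = 0.68, n = 3).

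The initiator caspase gene Dronc had signals of 174, 207 and 280 in RasV12, against 201, 191 and 154 in sSpi. The groups overlapped, with the highest value on RasV12 replicate 3 and the lowest on sSpi replicate 3. The log2 difference was 0.24 ± 0.17 (SE), with a 95% interval of -0.14 to 0.61 and a limma adjusted p of 0.56 (n = 3). It was 0.38 without RasV12 replicate 1 and 0.06 without RasV12 replicate 3, and passed in neither case.

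The 6 arrays stood in the same order by Dronc as by their ecdysone score. Ecdysone is the steroid that times metamorphosis, and Dronc is a known target of it in other larval tissues. The score was the mean log2 deviation of 17 tested ecdysone response genes from their mean over the arrays. It was -0.32, 0.41 and 0.48 in RasV12 replicates 1 to 3, against -0.01, -0.11 and -0.45 in sSpi replicates 1 to 3. Over the 6 arrays, Pearson's r between Dronc and the score was 0.90 and Spearman's rho 1.0, each with an exact permutation p of 0.0028. Across the 5 members related to the score, the Benjamini-Hochberg adjusted p was 0.014 for both measures. Without the 2 arrays farthest from the median score, RasV12 replicates 2 and 3, r was 0.99. With 3 arrays per genotype no r was taken within a genotype, and the order by Dronc matched the order by score within each. The relation was looked at after the Dronc values were seen, and the adjustment over 5 members does not cover that choice. The permutations moved values over all 6 arrays without regard to genotype, so their p does not separate the score from genotype. How many other probe sets follow the score was not tested. With the score as a covariate, the Dronc difference between genotypes was -0.012 (limma adjusted p = 0.97, n = 3).

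For the other members no relation to the score passed, which with 6 arrays does not show that there is none. Pearson's r was 0.60 for Dcp-1, 0.37 for Dark, -0.12 for Diap2 and -0.54 for grim, with exact permutation p from 0.22 to 0.87 and adjusted p from 0.46 to 0.87. Spearman's rho was 0.60 for Dcp-1, 0.26 for Dark, -0.43 for Diap2 and -0.37 for grim, with exact permutation p from 0.24 to 0.66 and adjusted p from 0.60 to 0.66. Without RasV12 replicates 2 and 3, r was -0.27 for Dcp-1, 0.04 for Dark, -0.82 for Diap2 and 0.45 for grim. Of the 17 ecdysone response genes none was called. An unadjusted limma p under 0.05 was reached by 5, against 15.2% of all probe sets, with Cth and ImpE3 the smallest. Without RasV12 replicate 1, 4 were called.

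**Figure D3:**
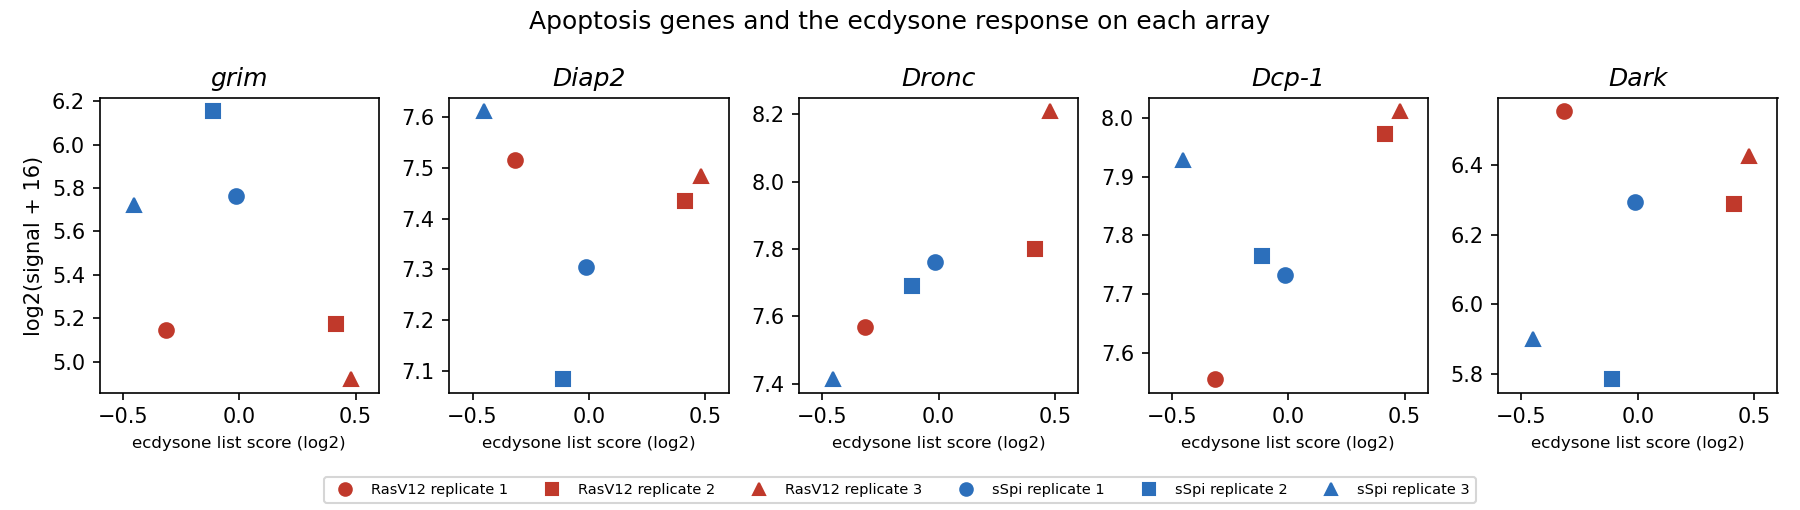
Log2(signal + 16) of each tested apoptosis gene (vertical axis, not from 0) against the ecdysone list score of the same array (horizontal axis, log2), with RasV12 in red, sSpi in blue and a symbol per replicate. The points of Dronc rise in a single order from sSpi replicate 3, at a score of -0.45, to RasV12 replicate 3, at 0.48, and those of the other 4 genes do not.

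The scaffold gene Dark had signals of 77.9, 62.1 and 69.8 in RasV12, against 62.5, 39.1 and 43.8 in sSpi. The groups overlapped only at RasV12 replicate 2 and sSpi replicate 1. The log2 difference was 0.43 ± 0.16 (SE), with a 95% interval of 0.07 to 0.78, an unadjusted limma p of 0.024 and an adjusted p of 0.23 (n = 3). It was above 0 in each of 16 other settings, from 0.26 to 0.58, and passed in none.

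The effector caspase gene Dcp-1 had signals of 172, 235 and 242 in RasV12, against 197, 202 and 227 in sSpi. RasV12 held the lowest value, on replicate 1, and the highest, on replicate 3. The log2 difference was 0.04 ± 0.14 (SE), with a 95% interval that corresponds to 0.83-fold to 1.27-fold of the sSpi level (limma adjusted p = 0.93, n = 3). Without RasV12 replicate 1 it was 0.18 (adjusted p = 0.38).

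**Figure D4:**
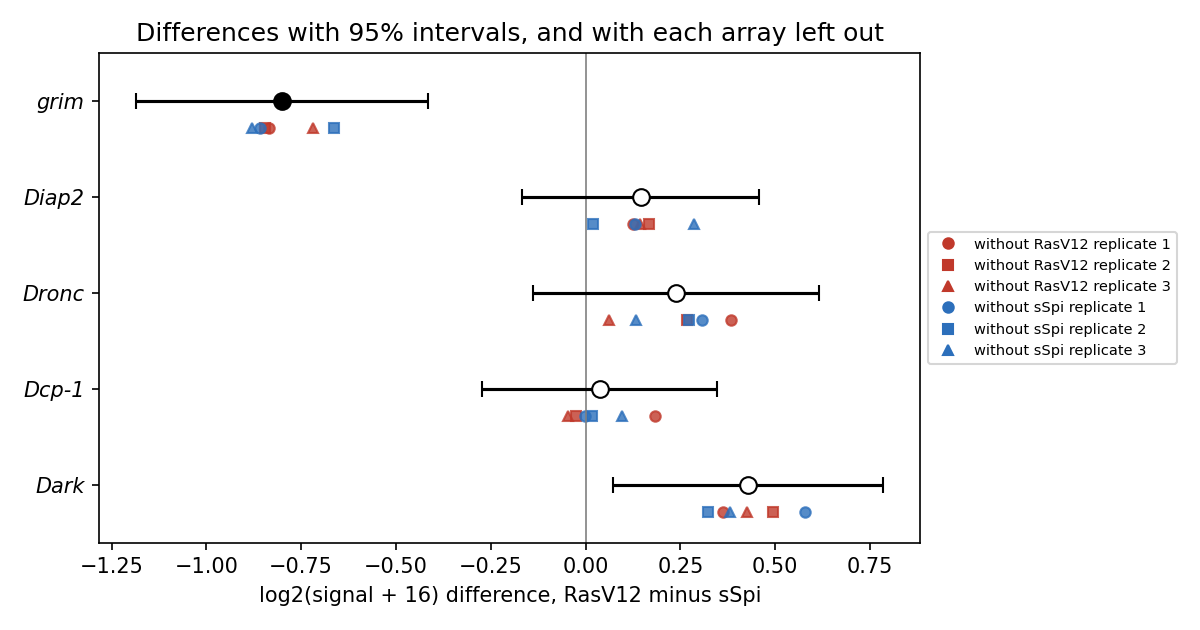
Log2(signal + 16) differences, RasV12 minus sSpi, of the 5 tested apoptosis genes with 95% limma intervals (black, filled where the adjusted p was under 0.05), and the same difference with each array left out (coloured symbols beneath). The grim values stay between -0.88 and -0.66 with an array left out, and the Dcp-1 values lie on both sides of 0.

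Other parts of the cell death machinery gave no call. Of 4 further caspases, 3 had a probe set and 1 was tested, Dredd, which acts in immune signalling; its signals were 129, 138 and 122 in RasV12, against 173, 197 and 152 in sSpi. The groups did not overlap, and the log2 difference of -0.38 ± 0.12 did not pass (limma adjusted p = 0.16, n = 3). Of 22 other death and survival factors 11 were tested and none passed, while 1 had an unadjusted limma p under 0.05, against 15.2% of all probe sets. That gene was morgue, whose product promotes turnover of Diap1, at 136, 129 and 133 in RasV12, against 173, 167 and 169 in sSpi. Its groups did not overlap, and its log2 difference was -0.32 ± 0.10 (limma adjusted p = 0.15, n = 3). The next smallest p in that list belonged to Acn, at 0.13 ± 0.11. Over the 11 genes the median was 0.0055, and 6 lay above 0.

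Upstream of the activators lies the stress pathway through Eiger and JNK, which can induce rpr and hid. Of its 11 genes tested 1 was called lower and 1 higher, against 2.61% called over all probe sets, and the median was -0.17. An unadjusted limma p under 0.05 was reached by 4, against 15.2% of all probe sets. Besides the called genes these were Jra, at -0.38 ± 0.11 (limma adjusted p = 0.13, n = 3), and Mkk4, at 0.37 ± 0.15 (0.28). The gene of the ligand, egr, the fly tumour necrosis factor, fell to 125, 121 and 126 in RasV12, against 182, 181 and 196 in sSpi. The difference was -0.53 ± 0.10 on the log2 scale (adjusted p = 0.024 in limma, n = 3). The adaptor gene Traf4 rose, at 386, 393 and 355 in RasV12, against 173, 159 and 274 in sSpi. The difference was 0.89 ± 0.17 on the log2 scale (adjusted p = 0.029 in limma, n = 3). For both genes no RasV12 value lay within the sSpi range. Neither was called without RasV12 replicate 1 and sSpi replicate 2 together (adjusted p = 0.060 and 0.12), nor with RasV12 replicate 2, RasV12 replicate 3, sSpi replicate 1 or sSpi replicate 2 left out alone. Without sSpi replicate 3, Traf4 was called and egr was not (adjusted p = 0.097), with the replicate block egr was not called (0.076), and without the signal filter Traf4 was not (0.078).

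Among 5 tested genes of DNA damage signalling and p53, the factor that induces rpr after irradiation, none passed and none had an unadjusted limma p under 0.05. The smallest p belonged to grp, at a log2 difference of 0.23 ± 0.12, and to p53 itself, at -0.33 ± 0.18, and the list median was 0.04. Of 9 tested transcriptional regulators with a known action on rpr, hid or Diap1, 1 rose and 1 fell, with a median of -0.10. Over all probe sets tested, 2.61% were called. The epithelial factor gene grh was at 296, 374 and 296 in RasV12, against 170, 156 and 211 in sSpi, which gave 0.80 ± 0.14 on the log2 scale (adjusted p = 0.017 in limma, n = 3). The JAK/STAT factor gene Stat92E was at 373, 440 and 418 in RasV12, against 542, 569 and 617 in sSpi, which gave -0.47 ± 0.10 on the log2 scale (adjusted p = 0.047 in limma, n = 3). The groups overlapped for neither gene. Stat92E was not called in 12 of 17 other settings, which include the removal of any 1 array, quantile normalization, median scaling and the replicate block (adjusted p up to 0.16). For grh this held in 4 of 17, without RasV12 replicate 2, sSpi replicate 1, sSpi replicate 2 or both arrays that stood apart (adjusted p up to 0.086). The Hippo pathway effector gene yki, which raises Diap1 transcription, differed by -0.0051 ± 0.11.

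Of 7 tested genes for the engulfment of dying cells none passed. An unadjusted limma p under 0.05 was reached by 1, against 15.2% of all probe sets, so that count is close to the background. That was Ced-6, an adaptor of the engulfment receptor, at 78.2, 79.2 and 80.2 in RasV12, against 61.6, 54.1 and 60.3 in sSpi, which gave 0.35 ± 0.11 on the log2 scale (adjusted p = 0.17 in limma, n = 3). The kinase gene Shark was next, at 0.23 ± 0.14, and the receptor gene drpr differed by 0.05 ± 0.10. The list median was 0.05.

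**Figure D5:**
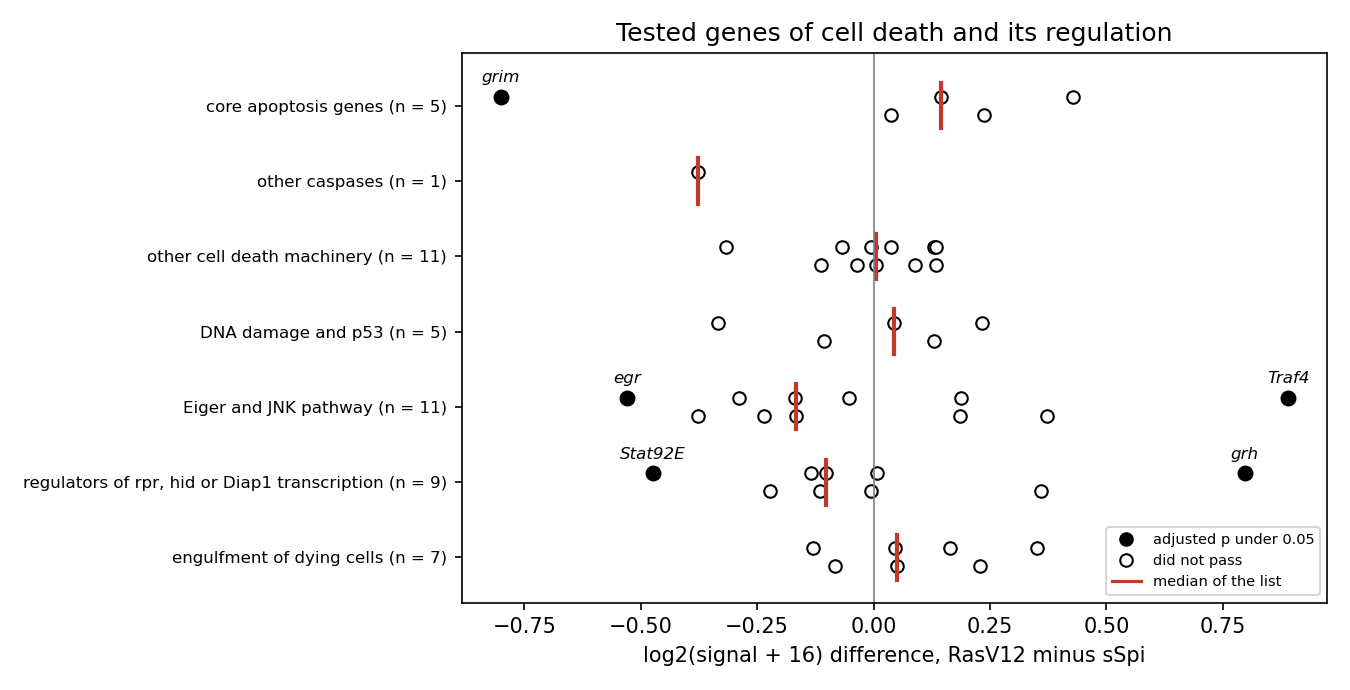
Log2(signal + 16) difference, RasV12 minus sSpi, of each tested gene of cell death and its regulation, 1 probe set per gene, with filled points for an adjusted p under 0.05 and a red line at the median of each list. The 5 named genes, grim, egr, Traf4, Stat92E and grh, passed, and the other points lie between -0.38 and 0.43.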

How the data were processed

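Single-colour Affymetrix arrays, 3 per genotype, were hybridised with biotin-labelled cRNA from 5 ug of total RNA, per the labels' protocols. The deposited values are intensities, 1 linear signal per probe set, and MAS5 is named without a version in the submitters' processing notes. The table held 14010 probe sets per array, 44 of them controls, with 0 columns unmatched to a sample; detection calls were not used here. Probe sets were named from the platform annotation, and 12443 had 1 gene symbol, 327 several and 1196 none. Symbols were updated through gene identifiers to the RefSeq gene table of assembly Release 6, whose coordinates are not printed because the files name no build.

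Signals were taken as log2(signal + 16). The upper 60% by mean signal over all arrays were fitted with lmFit and eBayes with a trend in limma 3.58.1 (R 4.3.3). Tests were two-sided and p-values were adjusted over all 8380 by the Benjamini-Hochberg method. The number of arrays limits the precision. Lists of further cell death genes, ecdysone response genes and cell type markers were represented by the brightest probe set per gene. Named are all measured members and list genes past the threshold or else the 2 of smallest p. Genes between hid and skl, and the 5 profiles nearest to a called member, are also named. Exceptions named for their role or place are yki, elav, repo, drpr and the genes flanking hid. Chosen after their values were seen were Buffy, CG4306, NimC1, sens, Jra, Mkk4, moody, nrv2, gcm, loco, dan and ss. The members and lists were chosen with earlier results of these data known, and 5 aliases were added to the lists once the gene table was at hand.

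Titles number the replicates 1 to 3 in both genotypes. Deviations of same-numbered arrays correlated at -0.11, -0.04 and -0.14, and the numbers were therefore not used to pair arrays. The alternatives comprised a pseudocount of 1 or 64, the upper 40% or no filter, quantile normalization, median scaling, eBayes without trend, a replicate block, 1 probe set per gene, each array left out, both RasV12 replicate 1 and sSpi replicate 2 left out, and the ecdysone score as a covariate. Plots were made in Python 3.11.15 with matplotlib 3.10.9.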

Additional observations from a re-analysis of the deposited data

How the results depend on the processing

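The count of apoptosis genes called, 1 of 5 tested, was 1 with pseudocounts of 1 and 64, median scaling, quantile normalization, 1 probe set per gene and eBayes without the trend. It was 0 with no signal filter, with the upper 40% of probe sets, where grim and Dark fell below the limit and were not tested, with the replicate block, without RasV12 replicate 1 and sSpi replicate 2 together, and with the ecdysone score as a covariate. With single arrays left out it lay between 0 and 1. The grim log2 difference with the replicate block was -0.80 (limma adjusted p = 0.055); without both arrays it was -0.70 (0.11), with the covariate -0.79 (0.074) and without the filter -0.80 (0.10). The Dronc difference turned to -0.012 and that of Dcp-1 to -0.099 with the covariate, and with single arrays left out Dcp-1 lay between -0.045 and 0.18. No call was gained for a member in any setting. The causes were not tested. Calls over all probe sets moved from 219 to between 86 and 369 with single arrays left out, to 138 without the filter, 162 without both arrays and 360 with the covariate. With the replicate block the count of called regulators of rpr, hid or Diap1 and that of Eiger and JNK genes were each 1 in place of 2. Signals near 0, as for skl, limit any statement on that gene.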

Other observations

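Beyond skl on the same chromosome arm, the second protein-coding gene is CG4306, chosen here after its values were seen. Its signals were 2.55, 1.42 and 2.45 in RasV12, against 85.8, 84.6 and 122 in sSpi. The log2 difference was -2.63 ± 0.17 (n = 3). Its p was the smallest of all 8380 probe sets tested (limma adjusted p = 0.00035). The RasV12 mean, 2.14, lay below 23.4, the lowest mean over all arrays that was tested. CG4306 therefore entered the test through its sSpi signals. Without that limit on mean signal the limma adjusted p was 0.0043. RasV12 stood at 0.022 of the sSpi level by mean signals and at 0.16 on the fitted scale, which shrinks differences of dim genes. On the hid side, CG7330 was at 51.3 ± 3.95 in RasV12 and 62.4 ± 5.29 in sSpi (SD, n = 3) and did not pass (limma adjusted p = 0.45). Its groups did not overlap, as for 21.3% of all probe sets tested. The geko probe sets on that side had groups that overlapped, with log2 differences of 0.19 ± 0.26 and -0.03 ± 0.12. Neither passed (limma adjusted p = 0.79 and 0.92).

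Buffy, which encodes a Bcl-2 family protein, was also chosen after its values were seen. Its signals were 22.3, 4.62 and 8.03 in RasV12, against 27.3, 49.3 and 27.4 in sSpi, with groups that did not overlap. Its mean over the 6 arrays, 23.2, lay just under the lowest mean tested, 23.4, and in the fit without the signal filter it did not pass (limma adjusted p = 0.23, n = 3). Like grim it was highest on sSpi replicate 2.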
